A study of Mus musculus with 24 samples.

Results

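The AP-1 and immediate early transcription factors of mouse liver were examined here as 10 genes, Jun, Junb, Jund, Fos, Fosb, Fosl1, Fosl2, Atf3, Egr1 and Klf6, taken by symbol from a table of 56205 genes. Of these 10, 9 passed the filter on low counts (at least 1 count in at least 12 libraries), and Fosl1 did not. C57BL/6J mice of both sexes, 8 to 10 weeks old at the start, received a high-fat diet or a control chow diet for 20 weeks, and poly(A)-selected RNA of whole liver was sequenced. There were 12 libraries per diet, and the series' design text gives 6 mice per diet and sex. The high-fat diet held 40% fat, 40% carbohydrate with 20% fructose, and 2% cholesterol. All mice carried the same genetic background and no transgene is named in the labels.

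AP-1 is a dimer of basic leucine zipper (bZIP) proteins. Members of the Jun family bind each other or a member of the Fos family, and Atf3, a relative that stress induces, can join Jun proteins or bind DNA with itself. Genes of this kind are called immediate early because growth factors, cytokines and cell stress raise their RNA within minutes without new protein synthesis, and in the liver they are known from regeneration, injury and the activation of macrophages and stellate cells. Egr1 and Klf6 are zinc finger factors with the same rapid kind of induction.

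Levels are given as CPM, counts relative to a library total that had been scaled with edgeR's TMM method. Library totals ranged from 14468418 to 22112552 counts, so 3 counts were worth 0.118 to 0.306 CPM. Control replicate 10 stood apart, with the lowest total, the lowest TMM factor (0.679) and the fewest detected genes (16646). Xist, a transcript of the inactive X chromosome, had 2664 to 6285 counts in replicates 1 to 6 of both diets and 0 to 3 in replicates 7 to 12, and the Y-linked Ddx3y had 0 and 448 to 1016 counts. The labels do not give the sex of a library, so the 12 libraries above 1000 Xist counts and the 12 below that are called the Xist-above and the Xist-below set, each with 6 libraries per diet. A call required an adjusted p no higher than 0.01 and a log2 fold change over 0.5 in size (edgeR's quasi-likelihood test, Benjamini-Hochberg adjustment over 17913 genes), and every adjusted p below for the diet is from that test unless another is named.

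The 250 bases upstream of the start site, from the RefSeq promoters of GRCm38.p6, were found for 8 of the 10 genes, and 4 are shown because they hold a match to a site that AP-1 and its CREB and ATF relatives are known to bind. Jun (chr4:95052223-95052472, minus strand) and Klf6 (chr13:5861239-5861488, plus strand) each hold the same 8 letters, TGACATCA, a match to TGACNTCA, and these are in capitals. Fos (chr12:85473640-85473889, plus strand) and Atf3 (chr1:191183334-191183583, minus strand) each hold TGACGT, in capitals, on the printed strand in Fos and as ACGTCA on the other strand in Atf3. All 4 are written 5′ to 3′ on the strand of the gene.
Jun: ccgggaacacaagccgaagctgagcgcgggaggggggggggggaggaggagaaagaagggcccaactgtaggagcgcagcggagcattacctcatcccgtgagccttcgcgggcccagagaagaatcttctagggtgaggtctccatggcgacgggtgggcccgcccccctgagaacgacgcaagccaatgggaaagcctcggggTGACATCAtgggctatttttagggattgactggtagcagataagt
Klf6: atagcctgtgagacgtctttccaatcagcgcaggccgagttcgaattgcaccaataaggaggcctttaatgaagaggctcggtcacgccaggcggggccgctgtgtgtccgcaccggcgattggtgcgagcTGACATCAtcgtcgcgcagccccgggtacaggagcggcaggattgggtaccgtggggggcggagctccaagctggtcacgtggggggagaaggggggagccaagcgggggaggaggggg
Fos: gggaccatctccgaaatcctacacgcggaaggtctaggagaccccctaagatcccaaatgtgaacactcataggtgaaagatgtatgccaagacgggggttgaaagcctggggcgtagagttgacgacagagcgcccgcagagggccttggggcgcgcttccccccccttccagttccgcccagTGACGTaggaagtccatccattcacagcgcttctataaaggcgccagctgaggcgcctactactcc
Atf3: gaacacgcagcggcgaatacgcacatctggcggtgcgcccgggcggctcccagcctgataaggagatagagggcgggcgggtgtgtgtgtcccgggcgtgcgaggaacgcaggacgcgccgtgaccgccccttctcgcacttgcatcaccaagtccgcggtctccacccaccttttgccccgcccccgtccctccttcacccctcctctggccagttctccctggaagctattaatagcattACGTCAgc

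Counted to the base before the start site, the match began at -45 in Jun, -119 in Klf6, -66 in Fos and -8 in Atf3. Both strands were searched, and TGACGT can be part of a TGACNTCA match with G in the open place. TGACNTCA was found in 7.49% and TGACGT in 6.47% of 32851 RefSeq promoters of this length. The classical AP-1 letters, TGACTCA, were in none of the 8 sequences and in 4.46% of all promoters, and the CArG box, the site of serum response factor, was in none and in 1.47%. Bases farther upstream than the searched windows were not covered, and no sequence was found for Fosl1 or Egr1. The search therefore cannot tell whether any member lacks an AP-1 site or a CArG box. These windows hold letters only, and no binding was measured. The start sites that RefSeq gives for Atf3 and Fosl2 lie inside the longer genes of GENCODE M21. For both, the searched window lies within the counted gene and did not cover the bases before its start. For Jund the RefSeq window ends upstream of the GENCODE gene and is not next to it, so the search for Jund did not cover the bases before the start of the counted gene.

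On the high-fat diet 6 of the 9 tested members were called higher, namely Atf3, Fosb, Jun, Klf6, Fos and Fosl2, against 13.2% of the 17913 tested genes (2372). None was called lower, against 4.99% of tested genes (894), and with 9 genes at that share nothing is read from this. All 9 log2 fold changes were above 0. Junb, Jund and Egr1 were not called. The median log2 fold change was 1.16 over the 9 tested members and -0.03 over all tested genes. With library totals in place of TMM the median of all genes moved to 0.26, all 9 tested members were called and the background of higher calls was 21.4%. Because the tissue is whole liver, a change in the number of cells of a type and a change of RNA per cell cannot be told apart.

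**Figure D1:**
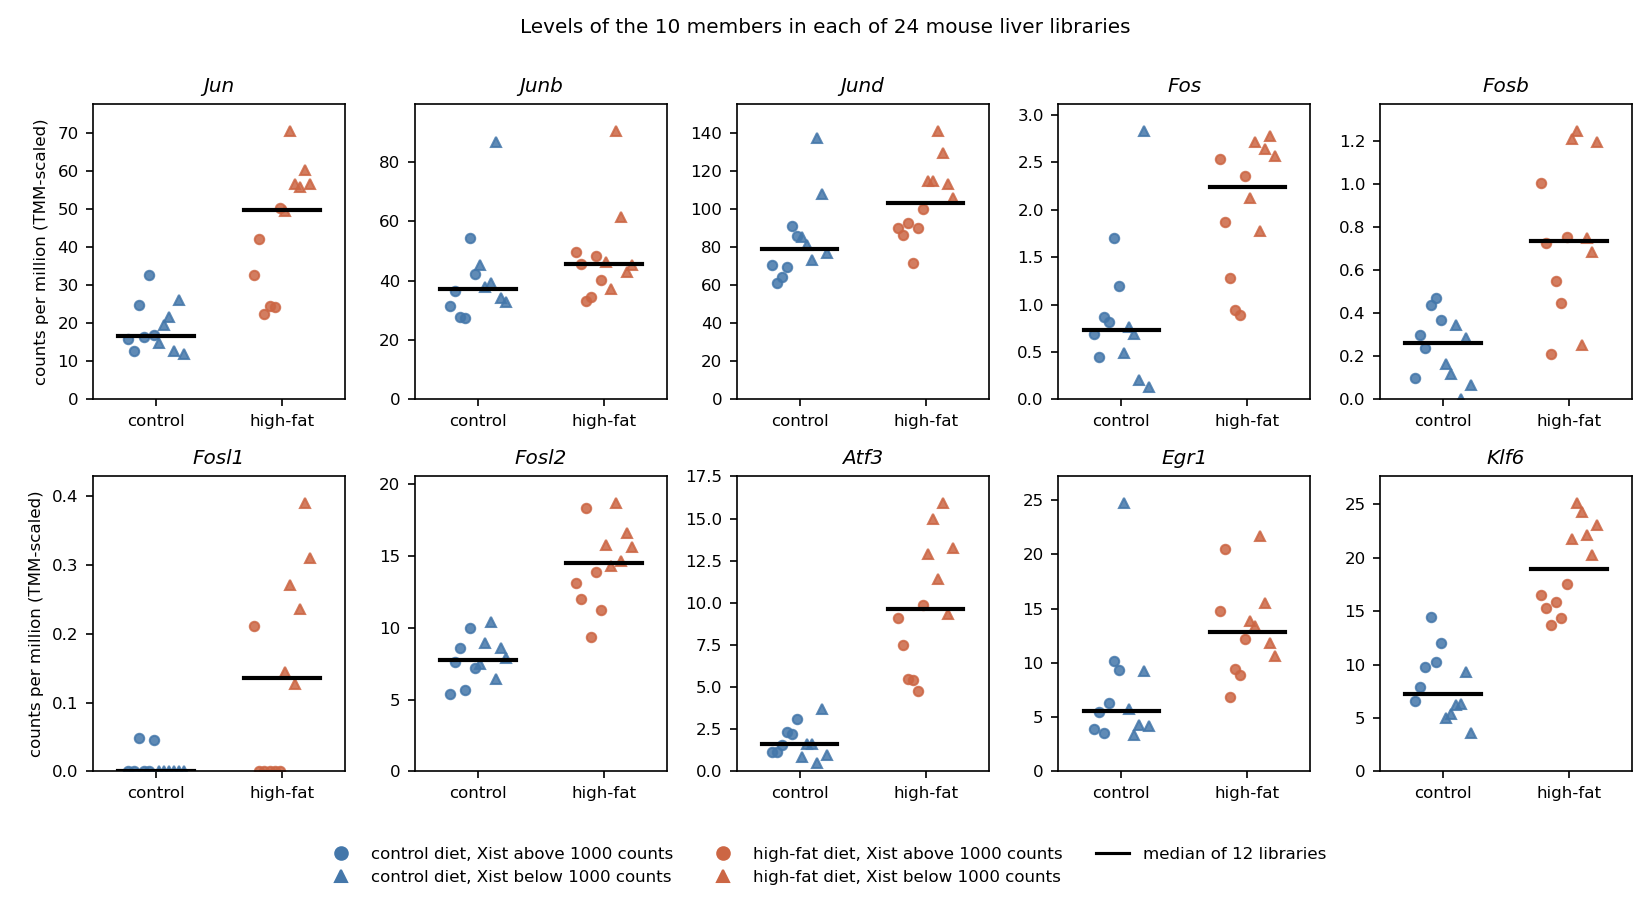
Each panel shows 1 gene, with TMM-scaled CPM on a linear vertical axis from 0, the 12 control libraries in blue and the 12 high-fat diet libraries in orange, circles for the Xist-above and triangles for the Xist-below set, and a line at the median of each diet. In Atf3 the 2 diets do not overlap, whereas in Junb, Jund, Fos and Egr1 at least 1 control library lies at the height of the upper high-fat diet libraries.

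Jun (ENSMUSG00000052684, chr4:95049034-95052222), the prototype partner of Fos proteins, had 22.4 to 70.6 CPM under high-fat feeding, the median being 49.9. On the control diet it had 11.8 to 32.8 CPM, with a median of 16.7. In 8 of the 12 high-fat diet libraries Jun was above the highest control library, and the other 4 overlapped the controls. Its log2 fold change was 1.27 (standard error (SE) 0.20, adjusted p = 2.235e-05), and it was called without any 1 of the 24 libraries.

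Junb (ENSMUSG00000052837, chr8:84974484-84978718), a Jun protein that often restrains Jun, ranged from 33.0 to 90.4 CPM under high-fat feeding (median 45.5) and from 27.4 to 86.8 CPM on the control diet (median 37.2). The 2 highest libraries belonged to different diets, high-fat diet replicate 9 and control replicate 10, and the remaining libraries of both diets overlapped widely. Its log2 fold change was 0.22 (SE 0.17, adjusted p = 0.335). Jund (ENSMUSG00000071076, chr8:70698949-70700616), the Jun protein that is expressed without a stimulus in most tissues, ranged from 71.5 to 141 CPM (median 103) against 61.2 to 137 CPM (median 79.0). Its highest control was also replicate 10, and 11 of the 12 high-fat diet libraries lay below it. The log2 fold change of Jund was 0.31 (SE 0.12, adjusted p = 0.04284). Without control replicate 10 it was 0.40 with an adjusted p of 0.003635, still under the fold threshold. In GENCODE M21, 877 of the 1668 exon bases of Jund overlap the antisense gene Gm11175, which had 58 to 234 counts. Whether the counting used strand is not given in the sources used here.

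Fosl2 (ENSMUSG00000029135, chr5:32135801-32157842), a Fos protein without the strong activation domain of Fos, had 9.36 to 18.7 CPM under high-fat feeding, the median being 14.5. The controls had 5.36 to 10.4 CPM, with a median of 7.74. In 11 of 12 high-fat diet libraries it exceeded every control, and replicate 4 alone fell within the control range. Its log2 fold change was 0.88 (SE 0.12, adjusted p = 3.904e-06), and between 0.84 and 0.93 with each library left out. High-fat diet replicate 3, with the highest Fosl2 of its set (18.3 CPM), also carried 158 CPM of summed neutrophil markers, against a diet median of 2.52, and the part of that library in the result was not tested beyond leaving it out.

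Fos (ENSMUSG00000021250, chr12:85473890-85477273), the founding member of its family, was scarce, with a median of 45.5 counts under high-fat feeding and 13.5 counts in controls. Its level was 0.893 to 2.78 CPM (median 2.24) against 0.132 to 2.83 CPM (median 0.728). All 12 high-fat diet libraries were above the control median, but the highest of all 24 libraries was control replicate 11. The log2 fold change of 1.16 (SE 0.33, adjusted p = 0.006491) was near the threshold, and the call was kept in 11 of the 24 fits with 1 library left out. The adjusted p reached 0.0121 in the other fits, and with control replicate 11 left out the estimate rose to 1.46.

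Fosb (ENSMUSG00000003545, chr7:19302696-19310051), whose product forms AP-1 dimers known from long-lasting stimulation, had 4 to 27 counts under high-fat feeding and 0 to 8 in controls. This corresponded to 0.213 to 1.25 CPM (median 0.738) and 0 to 0.470 CPM (median 0.262). In 9 high-fat diet libraries Fosb was above the highest control, while the lowest 3 overlapped the controls. Its log2 fold change was 1.58 (SE 0.35, adjusted p = 0.0009223). With the replicate number as a block the adjusted p was 0.0135, above the threshold.

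Fosl1 (ENSMUSG00000024912, chr19:5447547-5455946), a Fos protein that is itself a known target of AP-1, had 0 to 8 counts under high-fat feeding and 0 or 1 in controls, too few for the filter. It had 0 counts in 5 high-fat diet and 10 control libraries. All 6 Xist-below libraries of the high-fat diet held 3 to 8 counts, 32 in sum, whereas the 6 Xist-below controls held 0. Measured against a floor of 3 counts over the control group, this was at least 7.76-fold higher, for counting error only. In the Xist-above set the sums were 4 and 2 counts. A two-sided permutation test over all 24 libraries gave an unadjusted p of 0.00408, and without a filter Fosl1 was called (adjusted p = 0.002662). Of its 2033 exon bases, 1163 overlap Ccdc85b on the opposite strand, and Ccdc85b had 341 to 822 counts per library, also in the 15 libraries where Fosl1 had 0.

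Atf3 (ENSMUSG00000026628, chr1:191170296-191218039), the stress-induced bZIP factor, changed most among the tested members. Its level was 4.74 to 15.9 CPM under high-fat feeding, the median being 9.62. On the control diet it was 0.509 to 3.68 CPM, with a median of 1.60. The lowest high-fat diet library was above the highest control, a separation found in 1.48% of tested genes and in no other tested member. The log2 fold change was 2.50 (SE 0.26, adjusted p = 3.179e-07) and stayed between 2.43 and 2.65 with each library left out. A two-sided permutation test with 100000 resamples gave p = 2e-05, the smallest it could give.

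Klf6 (ENSMUSG00000000078, chr13:5861482-5870394), a zinc finger factor known from injured liver and activated stellate cells, had 13.7 to 25.2 CPM under high-fat feeding, the median being 18.9. The controls had 3.62 to 14.5 CPM, with a median of 7.23. In 10 of 12 high-fat diet libraries Klf6 was above every control, and the other 2 lay just under the highest control, replicate 4. Its log2 fold change was 1.24 (SE 0.18, adjusted p = 8.165e-06).

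Egr1 (ENSMUSG00000038418), a growth factor-induced zinc finger factor, had 6.88 to 21.7 CPM under high-fat feeding (median 12.8) and 3.40 to 24.8 CPM on the control diet (median 5.61). Every high-fat diet library was above the control median, yet control replicate 7 was the highest of all 24. The log2 fold change was 0.82 (SE 0.28, adjusted p = 0.0205), so Egr1 was not called. Without control replicate 7 it was 1.16 with an adjusted p of 0.0001735, which is a call. DESeq2 called Egr1 (adjusted p = 0.008385), as did limma-voom (adjusted p = 0.002634) and the fit with the replicate block (adjusted p = 0.007168).

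**Figure D2:**
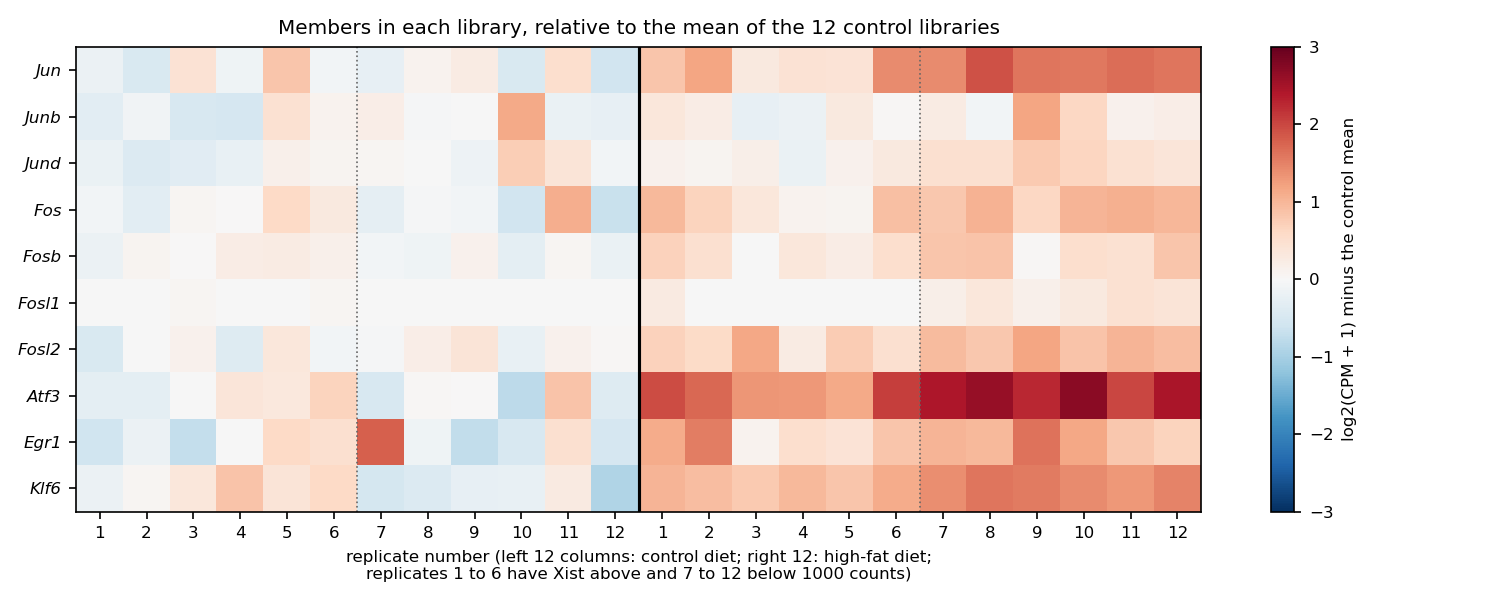
Each row is a gene and each column a library, the 12 controls on the left and the 12 high-fat diet libraries on the right, and the colour gives log2(CPM + 1) minus the mean of the controls, blue below and red above 0. Atf3, Jun, Fos, Fosl2, Klf6 and Egr1 are above the control mean in every high-fat diet library. Single dark cells mark Egr1 in control replicate 7, Junb in control replicate 10 and Fos in control replicate 11.

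The diet was next compared within the 2 library sets. In the Xist-above set 2 of the 9 tested members were called higher, Atf3 and Fosl2, against 2.9% of tested genes. In the Xist-below set 5 were called, Atf3, Fosb, Fosl2, Jun and Klf6, against 14.4%. Fos was called in neither (log2 fold change 0.80, adjusted p = 0.1371, and 1.48, adjusted p = 0.02978). Groups of 6 did not overlap for Atf3 in either set. For Jun, Fosl2 and Klf6 they did not overlap in the Xist-below set, where 12.6% of tested genes had every high-fat diet library above every control, against 3.51% in the Xist-above set. A call in 1 set and not in the other is no difference between them, so the difference of the diet effects was tested as an interaction.

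Klf6 passed that test. In the Xist-above set it had 13.7 to 17.6 CPM (median 15.6) with high-fat feeding and 6.59 to 14.5 CPM (median 10.04) on the control diet, a log2 fold change of 0.62 (SE 0.15). In the Xist-below set it had 20.3 to 25.2 CPM (median 22.6) and 3.62 to 9.35 CPM (median 5.82), a log2 fold change of 1.95 (SE 0.17). The Xist-below libraries were thus the higher set on the high-fat diet and the lower set by median on the control diet. The difference was 1.31 (SE 0.24, adjusted p = 0.001057 for the interaction, edgeR), and 10.2% of tested genes passed the same threshold of 0.05, 6.18% with the larger value in the Xist-below set.

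Jun had medians of 28.7 and 16.7 CPM in the Xist-above set and of 56.6 and 17.2 CPM in the Xist-below set, high-fat diet first. Its log2 fold changes were 0.73 (SE 0.24) and 1.72 (SE 0.18), and their difference was 0.99 (SE 0.32, adjusted p = 0.04672). The count of members passing this test fell from 2 to 1 in most fits with 1 library left out. Without control replicate 11 it was 4. For Atf3 the medians were 6.51 and 1.91 CPM in the Xist-above set and 13.1 and 1.30 CPM in the Xist-below set, and the difference of 1.16 (SE 0.44) had an adjusted p of 0.09447. With library totals in place of TMM it was 1.45 and passed (adjusted p = 0.0324). The differences of Fosb (1.37, SE 0.68), Fos (0.67, SE 0.63), Fosl2 (0.13, SE 0.22), Jund (0.10, SE 0.19), Junb (0.04, SE 0.32) and Egr1 (-0.17, SE 0.54) did not pass.

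**Figure D3:**
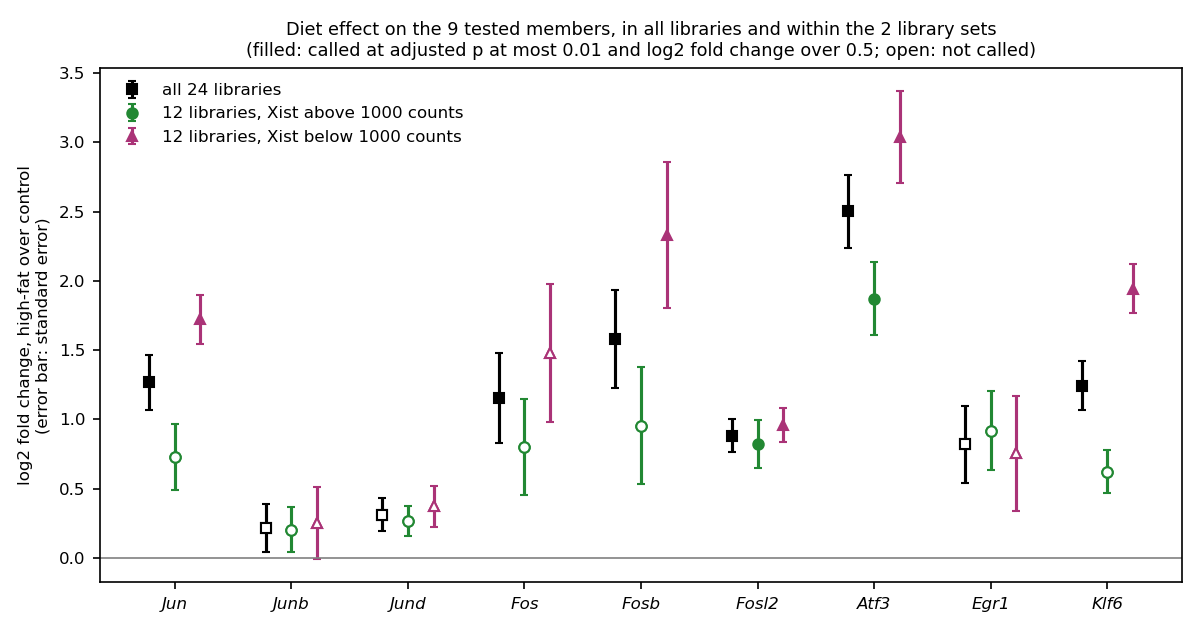
The vertical axis is the log2 fold change of the high-fat over the control diet with its standard error, for the 9 tested members in all 24 libraries (squares), the Xist-above set (circles) and the Xist-below set (triangles), filled where called. Klf6 and Jun lie apart between the sets, at 0.62 and 1.95 and at 0.73 and 1.72, while Fosl2 stays at 0.82 and 0.96.

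Markers of liver cell types moved with the diet and with the sets. Of 9 macrophage markers 8 were called higher, and their summed level was 576 to 1180 CPM under high-fat feeding and 137 to 566 CPM in controls. Of 8 stellate cell markers 5 were called higher (sums of 364 to 841 against 158 to 429 CPM), as were 4 of 5 cholangiocyte markers (31.6 to 881 against 27.3 to 131 CPM) and 3 of the 4 tested of 5 neutrophil markers (1.42 to 158 against 0.403 to 2.12 CPM). The stellate cell markers not called were Lrat (log2 fold change 0.34), Reln (0.13) and Acta2 (0.53). Those that rose most were the collagens Col1a1 (means of 119 against 13.6 CPM) and Col3a1 (171 against 28.1 CPM). Of 7 hepatocyte markers 6 were called lower (37100 to 89200 against 84400 to 129000 CPM), and 2 with library totals in place of TMM. None of 6 T cell markers (2.29 to 7.78 against 2.14 to 9.69 CPM) or 4 B cell markers (2.43 to 10.4 against 2.07 to 9.68 CPM), and 1 of 6 endothelial markers (148 to 334 against 128 to 279 CPM), was called higher. Within the Xist-below set, however, 3 of the 6 T cell and 1 of the 4 B cell markers were called higher, and none in the Xist-above set. Of all tested genes, 14.4% were called higher in the Xist-below and 2.9% in the Xist-above set. Calls in 1 set and not in the other are no test of a difference between the sets. The neutrophil calls lean on high-fat diet replicate 3 (S100a8 had 6.39 ± 18.8 CPM, SD, n = 12, with a highest value of 66.2), and they numbered 1 with limma-voom and 0 with the replicate block or in the Xist-above set. No marker was at 0 in all libraries of a diet.

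The same sums split by set were as follows for the macrophage markers, in medians of 6 libraries. They were 647 and 389 CPM in the Xist-above set and 750 and 179 CPM in the Xist-below set, high-fat diet first. The stellate cell sums were 471 and 296 CPM in the Xist-above set and 784 and 212 CPM in the Xist-below set, and the hepatocyte sums were 75000 and 110000 CPM and 44700 and 93000 CPM. The cholangiocyte sums were 106 and 40.6 CPM in the Xist-above set and 482 and 41.8 CPM in the Xist-below set. Spp1 was by far the largest part of them on average, at 268 CPM on the high-fat diet and 43.5 CPM in controls. No other cholangiocyte marker averaged above 10.4 CPM (Epcam, high-fat diet, SD 15.8, highest library 58.2). Of the 5 cholangiocyte markers 0 were called higher in the Xist-above set and 4 in the Xist-below set. Klf6 and Jun, the members whose difference between sets passed, had the wider gap between diets in the same set as these marker sums. This was not particular to them. Every other tested member except Egr1 also had its larger log2 fold change in the Xist-below set, though those differences did not pass with TMM and all 24 libraries. The part of these cell types in the changes of the members was not tested.

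Between genes, levels were compared per kilobase of exon. On the control diet the order of median CPM per kilobase was Jund (47.4), Junb (16.2), Jun (5.23), Klf6 (1.65), Egr1 (1.25), Fosl2 (0.799), Atf3 (0.742), Fos (0.310), Fosb (0.0419) and Fosl1 (0). On the high-fat diet Atf3, at 4.47, came before Klf6 at 4.31, and Jun, at 15.6, stood close to Junb at 19.8. Junb and Jun did not overlap among controls (11.9 to 37.7 and 3.71 to 10.3), while Jund (36.7 to 82.4) overlapped the highest Junb library. Neighbours from Klf6 to Atf3 in the control order overlapped in their ranges, 0.824 to 3.30 for Klf6 and 0.236 to 1.71 for Atf3.

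Within the Jun family, Jun made up a median of 14.6% of the summed level per kilobase under high-fat feeding and 8.34% in controls, and Jund 64.3% and 68.1%. Jund was thus the most abundant Jun transcript on both diets. Within the Fos family, Fosl2 made up 55.6% and 70.1% and Fos 36.4% and 26.8%, high-fat diet first. The summed level of the Fos family was 1.46 to 3.20 CPM per kilobase against 0.749 to 2.13, far under that of the Jun family, 65.6 to 142 against 56.5 to 124. Shares are not free of each other, and no test was made of them.

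The spread among libraries of 1 diet was wide for several members. The standard deviation of log2(CPM + 1) of Jun was at the 94.2 percentile of tested genes on the high-fat diet, and that of Egr1 was at the 97.4 percentile on the control diet. To ask whether members varied together, log2(CPM + 1) was correlated with that of Fos over the 12 libraries of a diet after the mean of each library set had been taken off. The p-values came from two-sided permutation within the sets and were adjusted over all 36 coefficients computed. On the control diet Fos varied with Atf3 (Pearson's r = 0.877, adjusted permutation p = 0.0117, Spearman's rho = 0.825, adjusted permutation p = 0.0117). It also varied with Jun (r = 0.810, adjusted permutation p = 0.00846, rho = 0.881, adjusted permutation p = 0.00846). After removal of the 2 libraries with the most extreme Fos levels, r was 0.818 and 0.727. Within the sets of 6 controls, given without a test, r was 0.711 and 0.943 for Atf3 and 0.821 and 0.900 for Jun, Xist-above set first.

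On the high-fat diet r was 0.777 for Atf3 (adjusted permutation p = 0.0993) and 0.751 for Jun (adjusted permutation p = 0.119), neither past 0.05, and r for Atf3 was 0.973 within the Xist-above and 0.176 within the Xist-below set. Fosl1, at 0 to 8 counts, had r = 0.624 there (adjusted permutation p = 0.0117, rho = 0.558, adjusted permutation p = 0.0451), a relation on sparse counts. Egr1 had r = 0.341 under high-fat feeding and 0.351 in controls, and Junb -0.11 and -0.12, none of them past the threshold. Under high-fat feeding these hide opposite signs within the sets, given without a test. There r was 0.665 and -0.77 for Egr1 and 0.388 and -0.755 for Junb, Xist-above set first. Jund, Fosb, Fosl2 and Klf6 did not pass on either diet. Whether the coefficients differ between diets was not tested.

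**Figure D4:**
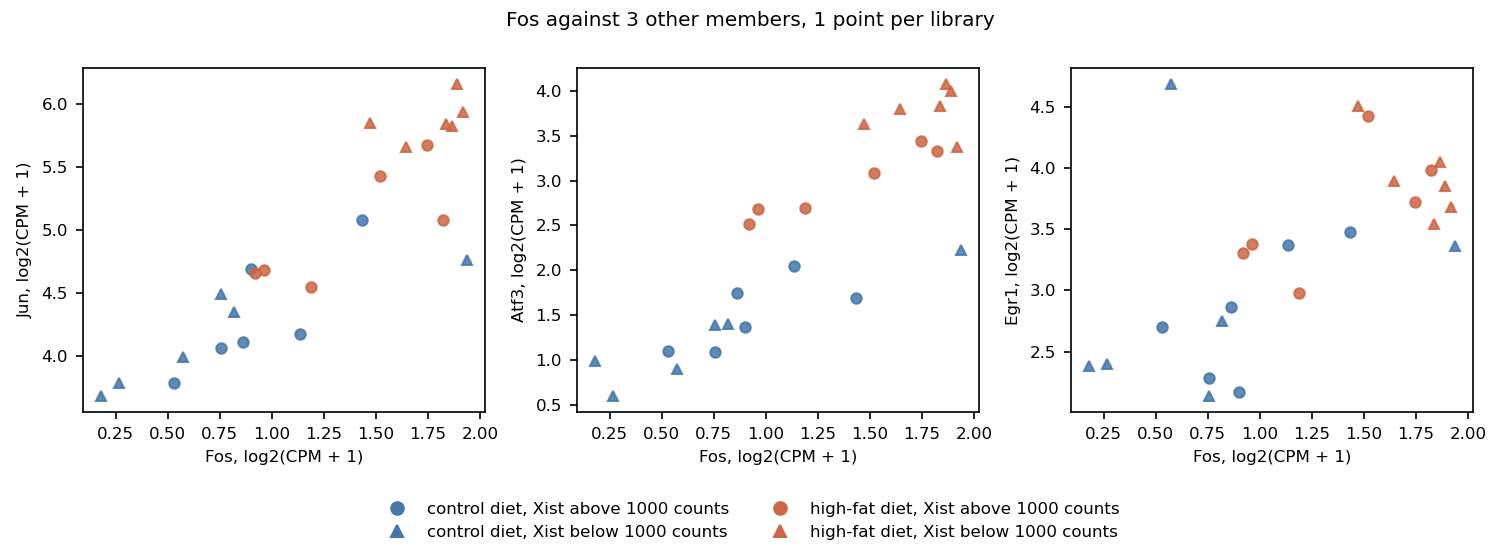
Each point is a library, with log2(CPM + 1) of Fos on the horizontal axis and of Jun, Atf3 or Egr1 on the vertical axis, coloured by diet and shaped by library set. Jun and Atf3 climb with Fos among the controls (r = 0.810 and 0.877 with the set means taken off), and Egr1 of control replicate 7 lies far above the other controls.

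Among 13917 genes with a mean of at least 10 counts, those whose deviations from the diet means were most like those of Fos over 24 libraries were Atf3 (r = 0.85), Loxl2 (0.82), Rcan1 (0.82), Lpar1 (0.80) and Jun (0.80). For Jun they were Mapt (0.81), Fos (0.80), Atf3 (0.79), Nmb (0.78) and Rhob (0.77). These coefficients describe the libraries, which share depth and set, and carry no test.

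The genes around the members in the pathway were read from 4 lists. These lists were chosen with earlier results of these data known, so their shares of called genes are descriptions and no independent test. Of 16 other bZIP partners of AP-1, 5 were called higher (31.2%, against 13.2% of all tested genes) and 0 lower, and the median log2 fold change was 0.04. The called genes were Batf (1.13), Batf3 (0.996), Batf2 (0.97) and Maff (0.81), and Mafk (0.64), which is named here as the fifth after its value was seen. The Batf genes encode bZIP proteins of immune cells that pair with Jun proteins, and Maff and Mafk encode small Maf proteins. With the replicate block 3 of the 16 were called, where 11.5% of all tested genes were called higher.

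Of 24 other immediate early genes 9 were called higher (37.5%, against 13.2% of all tested genes) and 1 lower, with a median log2 fold change of 0.59. Egr2 rose most (log2 fold change 2.7, SE 0.37), from 0.352 ± 0.289 to 2.39 ± 0.980 CPM (SD, n = 12 per diet). Among genes with a mean of at least 10 counts, the next were Gadd45b, a stress sensor (1.55, SE 0.36), Ier3 (1.44, SE 0.28) and Ier5 (1.07, SE 0.13). Nr4a3 (2.01, SE 0.37) and Egr3 (1.92, SE 0.47), under that mean, were also called and lay between Egr2 and Gadd45b. Csrnp1 was lower (-0.67, SE 0.13), and with library totals in place of TMM none of the 24 was called lower. Of the 24 log2 fold changes 18 were above 0, and 14 genes were not called, 9 of them above 0. Picked after their values were seen, the uncalled genes included Ccn1 (0.71, adjusted p = 0.01882) and Myc (0.64, adjusted p = 0.04153) on one side and Dusp1 (-0.53, adjusted p = 0.04898) and Ier2 (-0.23, adjusted p = 0.2145) on the other.

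Of 19 upstream kinases, serum response factor and its partners, 3 were called higher and 0 lower. This share of 15.8% was near the 13.2% of all tested genes, and nothing is read from it. The 3 were Elk3 (log2 fold change 0.65), a partner of serum response factor, Mapk3 (0.58), which encodes the kinase ERK1, and Mrtfa (0.55), an actin-regulated coactivator. The median of the list was -0.08 with TMM and 0.19 with library totals, so its sign depends on the scaling. RNA levels do not report the activity of these kinases.

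Of 14 textbook targets of AP-1, 13 were tested, 10 were called higher (76.9%, against 13.2% of all tested genes) and 0 lower, and the median log2 fold change was 1.82. Timp1, an inhibitor of matrix proteases, had the largest value (3.62, SE 0.48), from 0.353 ± 0.391 to 4.49 ± 2.71 CPM (SD, n = 12 per diet). The chemokine Ccl2 followed (3.15, SE 0.32), then the collagenase Mmp13 (3.04, SE 0.53) and the matrix protein osteopontin, Spp1 (2.62, SE 0.42), which also stood in the cholangiocyte list. In the Xist-above set 6 of the 13 were called higher, against 2.9% of all tested genes. In the Xist-below set 11 were, against 14.4%, and these counts are no test of a difference between the sets. Many of these genes are also expressed by macrophages, stellate cells and cholangiocytes, whose markers moved with the diet as given above. Because the choice of the targets was made with earlier results known, their share of higher calls cannot be read as a test of AP-1 activity.

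**Figure D5:**
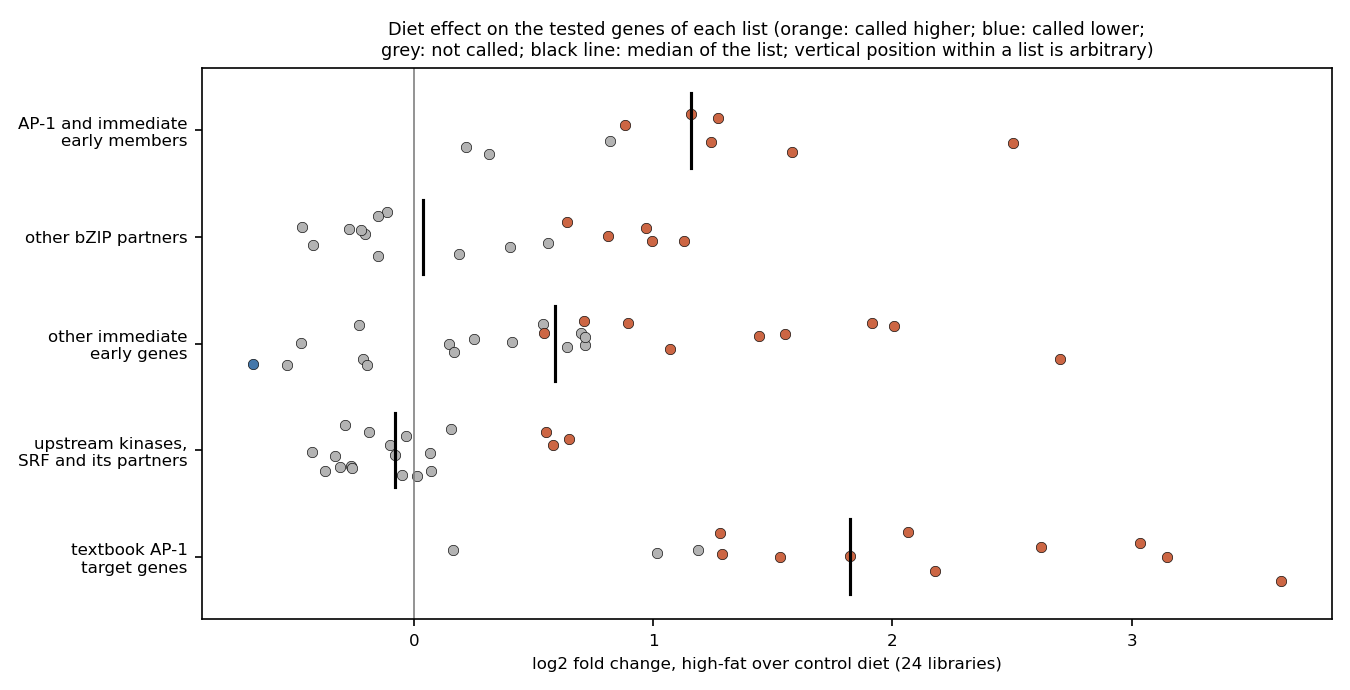
Each point is a tested gene, placed by its log2 fold change of the high-fat over the control diet, in 1 row per list, orange where called higher, blue where called lower and grey otherwise, with a line at the median of the list. The targets lie farthest right with a median of 1.82, and the bZIP partners and upstream genes centre near 0. All lists were chosen with earlier results of these data known.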

How the data were processed

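Poly(A)-selected libraries of whole liver were sequenced, 12 per diet. The authors deposited raw counts for each Ensembl gene, whole numbers that had not been normalized. STAR 2.7.3a, bcl2fastq and the build mm10 stand in the submitters' processing notes, and the supplemental methods name a stranded TruSeq kit for RNA-seq without giving the species, and the exon quantification pipeline and PISCES for human reads. The counting program, annotation and strand setting of the mouse table are not given in the sources used here. If reads were counted without strand, the overlap with its antisense neighbour could alter the value of Jund in either direction, which was not tested. Symbols came from GENCODE M21 for 51745 of 56205 IDs, and the other 4460 held 0.0723% of the counts.

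Diets came from the labels of each library. In R 4.3.3, edgeR 4.0.16 was used for the quasi-likelihood test after TMM scaling, with the diet as sole factor and the 17913 genes that had 1 count or more in 12 or more libraries, and p-values were adjusted after Benjamini-Hochberg. Thresholds (adjusted p at most 0.01, log2 fold change over 0.5) followed the supplemental methods. Standard errors were computed from the log2 fold change and the F statistic. The interaction added the library set. Relations used log2(CPM + 1) and 100000 permutations within sets (scipy 1.17.1). The scripts were tested on simulated data. The alternatives were DESeq2 1.42.0, limma-voom (limma 3.58.1), other scalings, filters and thresholds, the replicate block, the library set as a covariate and each library left out.

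The 10 members, the lists and the Xist split were chosen with earlier results of these data known. Named were all members, the 4 called genes with the largest log2 fold change of each list among those averaging 10 counts or more, and the 5 genes most like Fos and Jun. At 14468418 to 22112552 counts per library, 3 counts were worth 0.118 to 0.306 CPM, and this covers counting error only. The labels do not tie a library to an animal, so p-values measure the spread between libraries. No pair within a diet agreed within sampling noise (lowest chi-square per degree of freedom 9.47 on the high-fat and 17.0 on the control diet).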

Additional observations from a re-analysis of the deposited data

Results flagged for a closer look

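The diet effect differed between the 2 library sets for 2 members, by the interaction term of edgeR's fit. For Klf6 the log2 fold change was larger by 1.31 in the libraries with Xist below 1000 counts (adjusted p = 0.001057), where all 6 high-fat diet libraries were above all 6 controls. For Jun it was larger by 0.99 (adjusted p = 0.04672), with the same separation of the libraries, and this difference no longer passed in 16 of the 24 fits with 1 library left out. Of all tested genes 10.2% passed the same threshold. The sets also differed in the summed levels of the macrophage and stellate cell markers, whose part in both differences was not tested.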

How the results depend on the processing

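Jun, Fosl2, Atf3 and Klf6 were called higher with each of the 24 libraries left out, by DESeq2 and limma-voom, with either other scaling, with the library set as a covariate and without control replicates 10 and 11 together, an alternative added after seeing the data. Fosb was called in these fits too, but not with the replicate block. The filter filterByExpr of edgeR left Fosb untested, and 5 members were called under it. The number of members called higher, 6, was 2 in the Xist-above set alone. With at least 10 counts in every library it was 3 (Fosl2, Jun and Klf6). Atf3, Fos, Fosb and Fosl1 did not pass that filter and were not tested under it. Over all genes, library totals gave 3827 higher and 226 lower calls, and the filter at 10 counts 1226 higher among the 11322 genes it kept. The Xist-above set gave 520 higher and 158 lower, and the Xist-below set 1431 lower. An adjusted p of 0.05 with no fold threshold gave 3709 higher and 3388 lower, and a log2 fold change over 1 gave 216 lower. With library totals 2 of 7 hepatocyte markers were called lower.

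The call of Fos was lost without high-fat diet replicate 1, 6, 8, 10, 11 or 12, or control replicate 1, 2, 3, 4, 7, 8 or 9, and its log2 fold change ranged from 1.05 to 1.46. Egr1 was called only without control replicate 7 among these fits. In the fits of the interaction with each library left out, added after seeing the data, 1 to 4 members passed. Jun ranged from 0.79 to 1.15 and passed only without high-fat diet replicate 2, 6 or 7 or control replicate 1, 2, 4, 9 or 11. Without control replicate 11, Fos (1.55, adjusted p = 0.0443) and Atf3 (1.62, adjusted p = 0.00573) passed too. The sign was not stable for Junb (-0.16 to 0.31) or Egr1 (-0.34 to 0.51, and 0.17 with library totals). With library totals the relation of Fos with Junb on the high-fat diet was 0.0205. That of Fos with Klf6 on the control diet rose from 0.673 to 0.769 and passed (adjusted permutation p = 0.0457). The causes of these shifts were not tested.

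The replicate numbers were not taken as pairs, because same-numbered libraries of the 2 diets correlated at -0.09 to 0.54 in their deviations and 2 of 12 correlated best with their own number. With the replicate number as a block, 6 members were called (Egr1 in place of Fosb, whose log2 fold change was 1.54), with 2063 genes higher and 844 lower, and 0 of the tested neutrophil markers. At this depth Fosl1 and Fosb rest on few counts.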
